A study of Mus musculus with 9 samples.

Results

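The genes Rrm1, Rrm2, Rrm2b, Tyms, Dut, Tk1 and Dck encode enzymes that make or recycle deoxynucleotides: 3 subunits of ribonucleotide reductase, thymidylate synthase, the dUTP-cleaving enzyme dUTPase, and the salvage kinases for thymidine and deoxycytidine. They were taken by name, as every probe set annotated to 1 of the 7 symbols alone, which gave 20 probe sets of 45037 and 7 genes of the 18193 named on the array. The data come from 9 Affymetrix Mouse Genome 430 2.0 arrays, which read transcripts as probe set intensities. The samples were CD45.1+ LKS+ cells sorted from bone marrow of C57BL/6 mice aged 8 weeks. There were 3 arrays from mice at day 14 of leukemia, 3 from mice at day 7 of leukemia and 3 from control mice. LKS+ cells lack lineage markers, carry Kit and Sca-1 and hold blood stem cells and early progenitors, and CD45.1 is a variant of a leukocyte surface antigen used to tell cells of one origin from those of another. The series asks how normal stem and progenitor cells differ between stages of acute myeloid leukemia. The leukemia model is not described in the sources used here. Control arrays are not labelled with a day, and elapsed time therefore cannot be told apart from leukemia. Replicates are labelled biological without a statement that they are separate mice or sorts, and p-values then measure the spread between these arrays only, which may be technical.

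Ribonucleotide reductase reduces ribonucleotides to deoxyribonucleotides and is the step that limits the supply of DNA precursors. Its large subunit, Rrm1, works with one small subunit at a time. Rrm2 is made in S phase and removed after it, while Rrm2b (also called p53R2) is induced by p53 after DNA damage and supplies deoxynucleotides to cells that are not replicating, mitochondrial DNA included. Tyms methylates dUMP to dTMP, and Dut removes dUTP and so provides dUMP for Tyms and keeps uracil out of DNA. Tk1 phosphorylates thymidine and is an S-phase enzyme, whereas Dck phosphorylates deoxycytidine, deoxyadenosine and deoxyguanosine and is active through the cell cycle, with high activity in lymphoid cells. Genes of S-phase enzymes are commonly controlled by E2F factors. Hematopoietic stem cells divide rarely, and most cycling in the LKS+ fraction belongs to its progenitors.

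The promoter sequences of the large subunit, its S-phase partner and both salvage kinases are shown because all 4 windows hold an E2F core, while Rrm1, Rrm2 and Tk1 passed the test at day 14 and Dck did not. Each runs from 250 bases before to 50 bases after the annotated start, on the gene's strand, from RefSeq on build GRCm38.p6. The windows are chr7:102441445-102441744 on the plus strand for Rrm1, chr12:24708004-24708303 on the plus strand for Rrm2, chr11:117825965-117826264 on the minus strand for Tk1 and chr5:88764763-88765062 on the plus strand for Dck. Capitals mark the E2F core letters (TCCCGC or TGGCGC, or either on the other strand) and CCAAT boxes (CCAAT or its reverse complement), which do not overlap in these windows.
Rrm1: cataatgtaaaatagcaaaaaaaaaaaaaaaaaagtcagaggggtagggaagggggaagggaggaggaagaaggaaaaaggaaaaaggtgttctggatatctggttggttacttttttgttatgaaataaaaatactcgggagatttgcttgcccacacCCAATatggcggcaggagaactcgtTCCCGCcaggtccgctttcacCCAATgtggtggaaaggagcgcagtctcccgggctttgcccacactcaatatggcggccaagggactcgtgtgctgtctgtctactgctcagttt
Rrm2: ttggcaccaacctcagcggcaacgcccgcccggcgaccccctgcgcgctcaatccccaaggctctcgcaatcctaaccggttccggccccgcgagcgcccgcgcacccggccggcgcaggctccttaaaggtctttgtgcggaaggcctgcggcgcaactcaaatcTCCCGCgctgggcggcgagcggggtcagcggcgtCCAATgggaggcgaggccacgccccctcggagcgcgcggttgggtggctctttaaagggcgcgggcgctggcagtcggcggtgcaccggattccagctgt
Tk1: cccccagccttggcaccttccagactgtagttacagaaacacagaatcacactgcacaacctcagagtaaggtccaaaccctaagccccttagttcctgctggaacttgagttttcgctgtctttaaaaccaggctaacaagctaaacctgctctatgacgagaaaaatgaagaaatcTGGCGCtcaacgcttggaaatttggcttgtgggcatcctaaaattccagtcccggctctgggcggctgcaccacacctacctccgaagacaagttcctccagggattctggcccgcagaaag
Dck: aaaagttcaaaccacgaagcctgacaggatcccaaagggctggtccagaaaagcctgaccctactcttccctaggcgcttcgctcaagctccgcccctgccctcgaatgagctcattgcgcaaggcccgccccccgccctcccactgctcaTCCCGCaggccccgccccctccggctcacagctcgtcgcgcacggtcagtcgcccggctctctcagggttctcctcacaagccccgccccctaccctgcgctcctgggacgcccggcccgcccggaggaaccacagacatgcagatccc
Of the 7 genes, 6 matched a window in the promoter table, and Rrm2b is named only. An E2F core was present in all 6 of these windows, 1 time each in Rrm1, Rrm2, Tyms, Tk1 and Dck and 3 times in Dut. The same letters occurred in 27.7% of 32851 mouse promoters of that length (9089). CCAAT occurred 2 times in the Rrm1 window, 1 time in the Rrm2 window and in 37.4% of all promoters. Such matches are a description of letters, not of bound sites.

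All 9 arrays had median intensities between 23.4 and 24.2, and their values correlated across probe sets at r = 0.994 to 0.997 within groups. The 75th percentile was 115 to 119 in day 14 arrays, 128 to 130 in day 7 arrays and 127 to 128 in control arrays. A gene was tested with limma, on log2 intensity in 1 model over all 9 arrays, if the intensity of its brightest probe set exceeded the array's 40th percentile (14.1 to 15.2) in 3 or more arrays. This left 12652 genes and kept all 7 deoxynucleotide genes, for which 16 of the 20 probe sets passed. The threshold for a call was 0.05 on limma's p adjusted by Benjamini and Hochberg's method over all genes tested. A probe set's intensity depends on its probes, so levels are compared between arrays, not between genes.

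At day 14, 5 of the 7 genes fell against control: Rrm1, Rrm2, Tyms, Tk1 and Dut, by 1.67-fold to 2.85-fold. Rrm2b and Dck did not pass the test. For these 5 genes every day 14 array lay below every control array and every day 7 array. A large share of all genes also changed at day 14: limma called 34.1% of tested genes lower and 18.3% higher than control. Of all tested genes, 37.3% had day 14 arrays wholly below control arrays. The median log2 change was -0.87 over the 7 genes and -0.06 over all tested genes. The share of higher genes among those called was 34.9% as deposited, 45.1% after quantile normalization and 57.4% after scaling to the same 75th percentile, while all 5 genes stayed lower and called under both. In bulk RNA, fewer cells of a type and less RNA per cell cannot be told apart. Against day 7 the same 5 genes were lower at day 14 by 2.19-fold to 4.62-fold. Between these days 51.0% of all genes were called, those lower at day 14 made up 33.6% of all genes, and 38.6% had day 14 arrays wholly below day 7 arrays. In an F-test for any difference among the 3 groups, these 5 had limma adjusted p-values between 2.97e-05 and 8.14e-05, and 54.8% of all genes passed. The plots of intensity by array and of fitted changes show this split among the 7 genes.

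**Figure D1:**
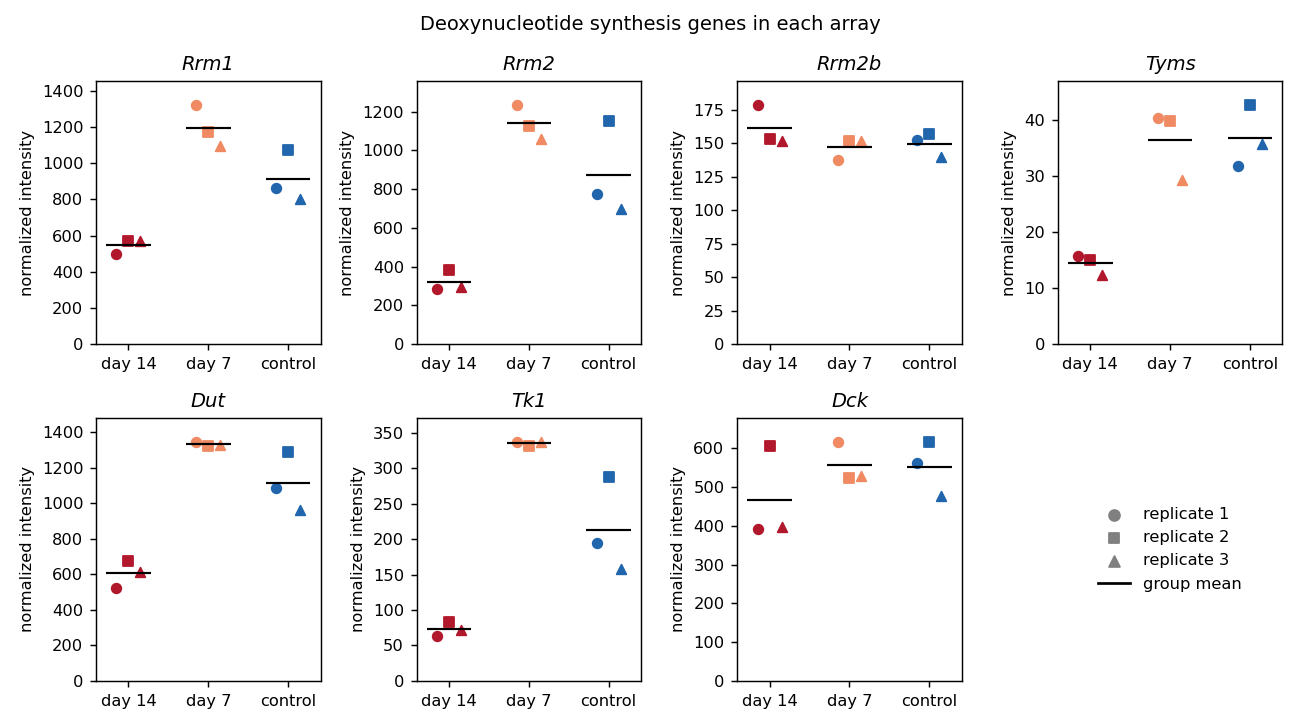
Normalized intensity (y axis, linear from 0) of the 7 deoxynucleotide synthesis genes in each array, with day 14, day 7 and control from left to right; symbols mark replicates and black bars group means. Day 14 arrays lie below all day 7 and control arrays for Rrm1, Rrm2, Tyms, Dut and Tk1, while the 3 groups overlap for Rrm2b and Dck.

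Rrm1, the large catalytic subunit, had intensities of 496, 569 and 569.9 in day 14 arrays, 1321, 1173 and 1096 in day 7 arrays, and 865, 1074 and 801 in control arrays. The 3 groups did not overlap: day 7 was highest and day 14 lowest. Mean intensity was 545 ± 42.3 at day 14, 1196.5 ± 115 at day 7 and 913 ± 143 in control (SD, n = 3 each). The fall at day 14 against control was -0.74 on the log2 scale (SE 0.11, 95% interval -0.99 to -0.48, limma adjusted p = 0.000504), or 1.67-fold. Against day 7 it was -1.13 (SE 0.11, limma adjusted p = 3.99e-05). A dimmer probe set for Rrm1 averaged 139 ± 26.0 at day 14, 350.2 ± 33.7 at day 7 and 284 ± 51.3 in control, and fell by 1.03 against control on the log2 scale (limma over all probe sets, adjusted p = 0.000769). The other Rrm1 probe set stayed below the 40th percentile in all arrays and was not tested.

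Rrm2, the S-phase small subunit, had intensities of 285, 383 and 298 in day 14 arrays, 1235, 1127 and 1060.3 in day 7 arrays, and 776, 1151 and 696 in control arrays. Day 14 arrays were all lower than the rest, whereas control replicate 2 lay within the day 7 range. Means were 322 ± 53.7 at day 14, 1141 ± 88.1 at day 7 and 874 ± 243 in control (SD, n = 3 each). Rrm2 fell 2.67-fold against control (log2 -1.42, SE 0.17, 95% interval -1.81 to -1.03, limma adjusted p = 0.000131). It was 3.57-fold lower at day 14 than at day 7 (log2 -1.83, SE 0.17, limma adjusted p = 3.16e-05). The probe set that stands for Rrm2 carries the suffix that marks probes shared with other transcripts, and both other Rrm2 probe sets, which do not carry it, fell at day 14 by 1.32 and 1.43 on the log2 scale.

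Rrm2b, the p53-inducible small subunit, had intensities of 179, 153 and 152 in day 14 arrays, 138, 152 and 152 in day 7 arrays, and 152, 157 and 140.1 in control arrays. These ranges overlap in every pair of groups, and a single day 14 array stands above the rest. Day 7 replicates 2 and 3 and day 14 replicate 3 hold exactly the same value to all deposited digits, which occurred in at least 2 arrays for 51.64% of all probe sets. Means were 161 ± 15.1 at day 14, 147 ± 8.15 at day 7 and 149.8 ± 8.66 in control (SD, n = 3 each). The log2 difference was 0.10 at day 14 against control (95% interval -0.08 to 0.29, limma adjusted p = 0.305) and 0.13 against day 7 (-0.05 to 0.31, adjusted p = 0.218). The difference between the days passed the threshold after quantile normalization (0.26, limma adjusted p = 0.0333) and after scaling to the 75th percentile (adjusted p = 0.034). The 3 dimmer Rrm2b probe sets gave -0.12, -0.02 and -0.09 against control, with none past the threshold (adjusted p 0.583 to 0.885). Averaging all 4 Rrm2b probe sets turned the sign at day 14, to -0.03.

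The test of whether Rrm2b changed differently from Rrm2 used the difference of their log2 intensities within each array. This difference was higher at day 14 than in control by 1.52 (SE 0.26) and higher at day 14 than at day 7 by 1.96 (SE 0.22). The arrays of the compared groups did not overlap in either case, and the two-sided exact permutation p was 0.1, the smallest that 3 arrays against 3 allow. At day 7 against control the difference was -0.44 (SE 0.21), the arrays overlapped and the exact p was 0.2. Against Rrm1, Tyms, Tk1 and Dut the change of Rrm2b at day 14 was higher by 0.84, 1.45, 1.62 and 0.98, each without overlap and with the same smallest exact p. Against Dck it was higher by 0.37 with overlapping arrays (exact p = 0.4). With p-values adjusted over these 18 comparisons, the lowest was 0.138, so none passed and none could have.

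Tyms, which makes dTMP, was read by a dim probe set with intensities of 15.8, 15.1 and 12.4 in day 14 arrays, 40.3, 39.9 and 29.3 in day 7 arrays, and 31.8, 42.6 and 35.7 in control arrays. Day 14 arrays were lowest, and 1 of the 3 was below the 40th percentile of its array, while day 7 and control arrays overlapped. Mean intensity was 14.4 ± 1.80 at day 14, 36.5 ± 6.22 at day 7 and 36.7 ± 5.50 in control (SD, n = 3 each). Tyms fell 2.54-fold against control (log2 -1.35, SE 0.15, 95% interval -1.68 to -1.02, limma adjusted p = 7.34e-05). Because the probe set is dim, the size depends on the low end of the scale: with an offset of 32 in place of the floor the change was -0.56, still called. The 3 other Tyms probe sets stayed below the 40th percentile in all arrays. A brighter probe set annotated to both Tyms and its pseudogene Tyms-ps is no member by the rule above. It averaged 209 ± 41.2 at day 14, 632 ± 20.4 at day 7 and 414 ± 82.5 in control. It was lower at day 14 than in control by 0.99 on the log2 scale (limma over all probe sets, adjusted p = 0.00114). A probe set annotated to the pseudogene alone was below the 40th percentile in all arrays.

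Dut, which hydrolyses dUTP, had intensities of 526, 677 and 616 in day 14 arrays, 1348, 1326 and 1329 in day 7 arrays, and 1084, 1292 and 963 in control arrays. The groups did not overlap, with day 7 highest, and the day 7 arrays were the most alike. Means were 606 ± 76.2 at day 14, 1335 ± 11.9 at day 7 and 1113 ± 167 in control (SD, n = 3 each). Dut fell 1.83-fold against control (log2 -0.87, SE 0.11, 95% interval -1.13 to -0.62, limma adjusted p = 0.000189) and was 2.21-fold lower at day 14 than at day 7. Its second probe set, with a mean of 48.2 ± 7.53 at day 14 and 87.5 ± 15.3 in control, gave -0.86, nearly the same change.

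Tk1, the S-phase thymidine kinase, had intensities of 63.3, 83.8 and 72.1 in day 14 arrays, 338, 332 and 337 in day 7 arrays, and 195, 288 and 158 in control arrays. The groups did not overlap, and the controls were the most spread. Means were 73.1 ± 10.3 at day 14, 335 ± 3.18 at day 7 and 214 ± 67.3 in control (SD, n = 3 each). Tk1 fell 2.85-fold against control (log2 -1.51, SE 0.18, 95% interval -1.92 to -1.10, limma adjusted p = 0.000121) and 4.62-fold against day 7 (log2 -2.21, SE 0.18, adjusted p = 2.06e-05). As processed here its fall was the largest of the 7, but with an offset of 32 Rrm2 fell more against control (-1.33, and Tk1 -1.20), and without day 14 replicate 1 Tyms did by a small margin (-1.416, and Tk1 -1.413). It has 1 probe set on the array, so no second reading exists.

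Dck, the deoxycytidine kinase, had intensities of 393, 607 and 398 in day 14 arrays, 616, 524 and 529 in day 7 arrays, and 562, 617 and 477 in control arrays. Day 14 replicates 1 and 3 were below all other arrays, and day 14 replicate 2 was not. The log2 difference was -0.27 against control (SE 0.16, 95% interval -0.63 to 0.09, limma adjusted p = 0.186) and -0.28 against day 7 (adjusted p = 0.167). Without day 14 replicate 2 these became -0.47 (adjusted p = 0.00863) and -0.49 (adjusted p = 0.00725), both past the threshold. The Dck probe sets disagreed. The second, at 109 ± 17.8 at day 14 and 128 ± 13.7 in control, did not pass either (log2 -0.25, adjusted p = 0.113). The dimmest averaged 28.7 ± 3.29 at day 14, 50.4 ± 3.43 at day 7 and 42.6 ± 4.34 in control (SD, n = 3 each), and its groups did not overlap. It fell by 0.57 against control (limma over all probe sets, adjusted p = 0.00215). The mean of the 3 gave -0.36 for the gene (limma adjusted p = 0.0262). Over the 16 probe sets tested for the 7 genes, 10 fell at day 14 against control and 0 rose, where 27.5% and 17.0% of all probe sets did.

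**Figure D2:**
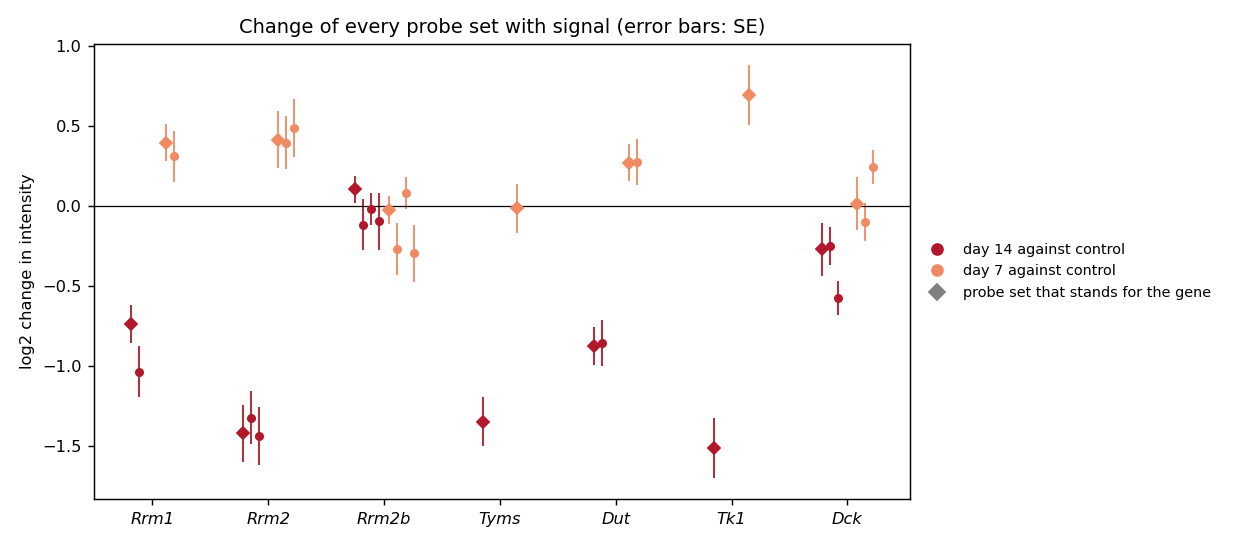
Log2 change in intensity (y axis, bars show SE) of each of the 16 probe sets with signal, by gene, at day 14 against control and at day 7 against control; diamonds mark the probe set that stands for the gene. At day 14 the probe sets of Rrm1, Rrm2 and Dut fell together, those of Rrm2b lie near 0, and those of Dck range from -0.25 to -0.57. At day 7 those of Rrm2b range from -0.29 to 0.08.

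At day 7, 0 of the 7 genes were called against control by limma, where 3.34% of all genes were called. At an unadjusted p below 0.05 there were 4 of the 7, Rrm1, Rrm2, Tk1 and Dut, all higher than control, against 2511 of the 12652 genes. The log2 difference was 0.70 for Tk1 (95% interval 0.29 to 1.10, adjusted p = 0.0694), 0.40 for Rrm1 (0.14 to 0.65, adjusted p = 0.0889), 0.42 for Rrm2 (0.03 to 0.80, adjusted p = 0.217) and 0.27 for Dut (0.02 to 0.53, adjusted p = 0.218). For Tyms it was -0.01 (-0.34 to 0.32), for Rrm2b -0.02 (-0.20 to 0.16) and for Dck 0.02 (-0.34 to 0.37). The 3 dimmer Rrm2b probe sets gave -0.27, 0.08 and -0.29, with none past the threshold (limma over all probe sets, adjusted p 0.377 to 0.692). The median over the 7 genes was 0.27, and 0.01 over all genes. For Rrm1, Tk1 and Dut every day 7 array lay above every control array, as it did for 15.2% of all genes. These 3 of the 7 were thus highest at day 7 and lowest at day 14 without overlap, an order found in 6.40% of all tested genes. The day 7 calls depend on 1 control array: without control replicate 2, Tk1 (0.94, limma adjusted p = 0.00708), Rrm1 (0.52, adjusted p = 0.0247) and Rrm2 (0.63, adjusted p = 0.0298) passed. With array weights 4 of the 7 passed, and with an offset of 32 only Tk1 did (0.62, limma adjusted p = 0.0406). Calls over all tested genes rose too, from 423 to 555 without control replicate 2, 2181 with array weights and 703 with the offset.

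**Figure D3:**
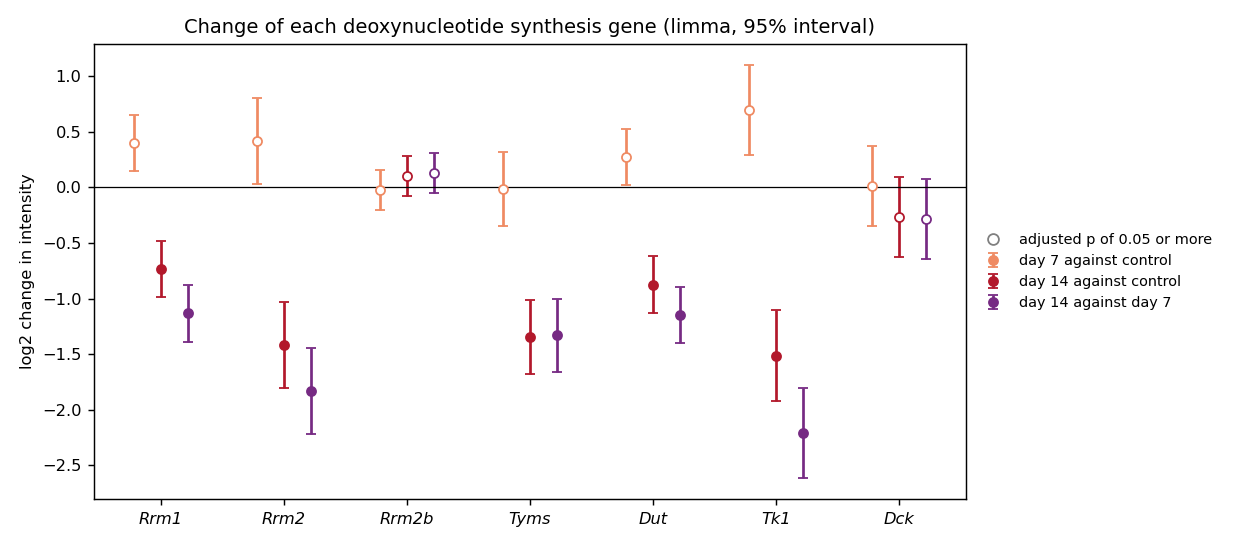
Log2 change in intensity (y axis) of each of the 7 genes in the 3 comparisons, with 95% intervals from limma; open points have an adjusted p of 0.05 or more. Day 14 points of Rrm1, Rrm2, Tyms, Dut and Tk1 lie between -0.74 and -2.21, those of Rrm2b and Dck have intervals that include 0, and all 7 day 7 points are open.

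Among control arrays, replicate 2 held the highest intensity for all 7 genes and replicate 3 the lowest for 6. Mki67, a gene of cycling cells that is not a member, read 670, 757 and 823 in day 14 arrays, 1896, 1732 and 1501 in day 7 arrays, and 918, 1318 and 991 in control arrays, so it too was highest in control replicate 2 among the controls. Day 7 replicate 1 was the highest day 7 array for 6 of the 7 genes, and day 14 replicate 1 the lowest day 14 array for 5. How many of all tested genes share these array orders was not counted, so the orders are not shown to be particular to the 7 genes. The part of cycling in the differences was not tested.

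The genes most like Rrm2, predicted genes and clones aside, had the smallest root mean square difference of gene-centred log2 values over the 9 arrays. They were Rad51ap1 (0.094), Cenpk (0.099) and Nuf2 (0.14), both of the kinetochore, Shcbp1 (0.15) and Uhrf1 (0.15), which reads hemimethylated DNA behind the fork. On the same measure, but ranked among all tested genes with predicted genes and clones kept, Tk1 was the 13th nearest to Rrm2. Tyms was the 87th, Dut the 119th and Rrm1 the 157th, while Dck was the 2896th and Rrm2b the 8860th. For Rrm2b the nearest were Pld1 (0.037), Foxd2, Mecom, Iqsec1 and Clip2 (0.049). These are all genes with little difference among the groups, and log2 changes at day 14 between 0.03 and 0.14. The 9 arrays share their 3-group layout, so genes that merely follow the groups come out as alike.

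In nucleotide metabolism around the 7 genes, list counts at day 14 are to be read against the 34.1% of all tested genes called lower and the 18.3% called higher. Of 13 tested kinases and deaminases of salvage and phosphorylation, 8 fell, 2 rose and 3 did not pass (median log2 -0.33). Among the 8, Adk (limma adjusted p = 0.0497) lost its call under 13 of 21 alternatives. Dctd, which deaminates dCMP to dUMP, fell to 231 ± 27.4 at day 14 against 378 ± 51.1 in control (log2 -0.71, limma adjusted p = 0.000562). Dtymk, which phosphorylates dTMP, fell by 0.56, and the mitochondrial deoxyguanosine kinase Dguok fell by 0.53. The mitochondrial thymidine kinase Tk2 differed by -0.12 (adjusted p = 0.375). Cmpk2 fell by 0.81 (adjusted p = 0.0114), a call lost without the filter on dim probe sets. The uridine-cytidine kinases Uck1 (0.17) and Uck2 (0.23) were the ones that rose, 2 of 13, a smaller share than over all genes, and Uck1 lost its call under 8 of 21 alternatives, and Uck2 without control replicate 1.

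Of 10 enzymes that hydrolyse or sanitise nucleotides and nucleosides, 7 fell and 1 rose. The purine-degrading Ada and Pnp fell by 1.11 and 0.97 on the log2 scale (limma adjusted p = 2.78e-05 and 1.33e-05), and Nudt1, which removes oxidised purine nucleotides, fell by 0.81. Upp1, uridine phosphorylase, rose by 0.45. Samhd1, a dNTP hydrolase active outside S phase, fell by 0.25 (adjusted p = 0.0117), a call lost without control replicate 1 and after scaling to the 75th percentile. Of 7 genes that remove uracil from DNA, 5 fell, among them the uracil glycosylases Ung (-1.17) and Smug1 (-1.07) and the nuclease Apex1 (-0.57). Mbd4, also among the 5, lost its call under 4 of 21 alternatives, quantile normalization and scaling to the 75th percentile included. Of 3 nucleoside transporters 2 fell, Slc29a1 by 0.75 and Slc29a2 by 0.29, the second call being lost after scaling to the 75th percentile. Of 5 genes of the thioredoxin and glutaredoxin systems, which reduce ribonucleotide reductase, Glrx (-0.47) and Txn1 (-0.30) fell and Gsr (0.42) rose, shares near those over all genes. The Txn1 call was lost after scaling to the 75th percentile and with the mean of its probe sets.

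Most tested genes of the precursor pathways fell too. Of 8 folate genes 6 fell and 0 rose, and 4 fell after quantile normalization. The largest change was that of Mthfd1, at 361 ± 44.1 at day 14 against 682 ± 51.1 in control (log2 -0.92, limma adjusted p = 5.4e-05). Slc19a1, the reduced folate carrier, fell by 0.47. Of 5 genes of pyrimidine synthesis 4 fell, Umps by 1.05 and Cad, which starts the pathway, by 0.63. Of 14 genes of purine synthesis and salvage 11 fell, with Gart (-0.91), Pfas (-0.85) and Ppat (-0.68) leading. After scaling to the 75th percentile the purine count was 7.

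S-phase genes fell together. All 28 tested genes of the replication fork and S phase were called lower at day 14 (median log2 -0.82), 27 after quantile normalization and 26 after scaling to the 75th percentile. Cdc6 (-1.62), which loads the replicative helicase, Ccne2 (-1.57) and Gins1 (-1.26) fell most. Pcna, the sliding clamp, fell by 0.40. Of 15 regulators of S-phase genes and of RRM2 or TK1 turnover, 13 fell and 1 rose. Among the 13, Atr lost its call under 12 of 21 alternatives and E2f2 under 3, quantile normalization being among them for both. Skp2 (-1.62), Chek1 (-1.44), Rbl1 (-1.26), E2f3 (-1.11) and E2f1 (-0.96) were among those that fell, as was Ccnf (-0.98), which targets human RRM2 for degradation. Rb1, the E2F inhibitor, rose to 270.5 ± 7.58 at day 14 against 169 ± 4.10 in control (log2 0.68, adjusted p = 5.63e-05).

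Other genes induced by p53 did not move one way. Of 19 tested, 7 rose, 6 fell and 6 did not pass at day 14 (median log2 0.04), and 4 fell after quantile normalization or scaling to the 75th percentile. The share that fell is near the 34.1% of all tested genes called lower, and 18.3% of all genes were called higher. Cdkn1a, the p21 inhibitor of cyclin-dependent kinases, read 2067, 1695 and 1792 in day 14 arrays, 1294, 1064 and 1433 in day 7 arrays, and 777, 710 and 853 in control arrays, without overlap. It rose by 1.25 at day 14 (limma adjusted p = 3.25e-05) and by 0.69 at day 7 (adjusted p = 0.0165). The apoptosis genes Pmaip1 (1.36) and Bbc3 (1.14) rose at day 14, whereas the nuclease gene Aen (-0.63), Sesn1 (-0.54) and the repair gene Xpc (-0.54) fell. Of 11 genes induced by FOXO factors 8 rose and 0 fell, led by Klf2 (1.82), Irs2 (1.75) and Ccng2 (0.85). At 0.10, Rrm2b lay between the genes of its p53-induced group that rose and those that fell. The plot of pathway genes at day 14 shows the lists side by side.

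**Figure D4:**
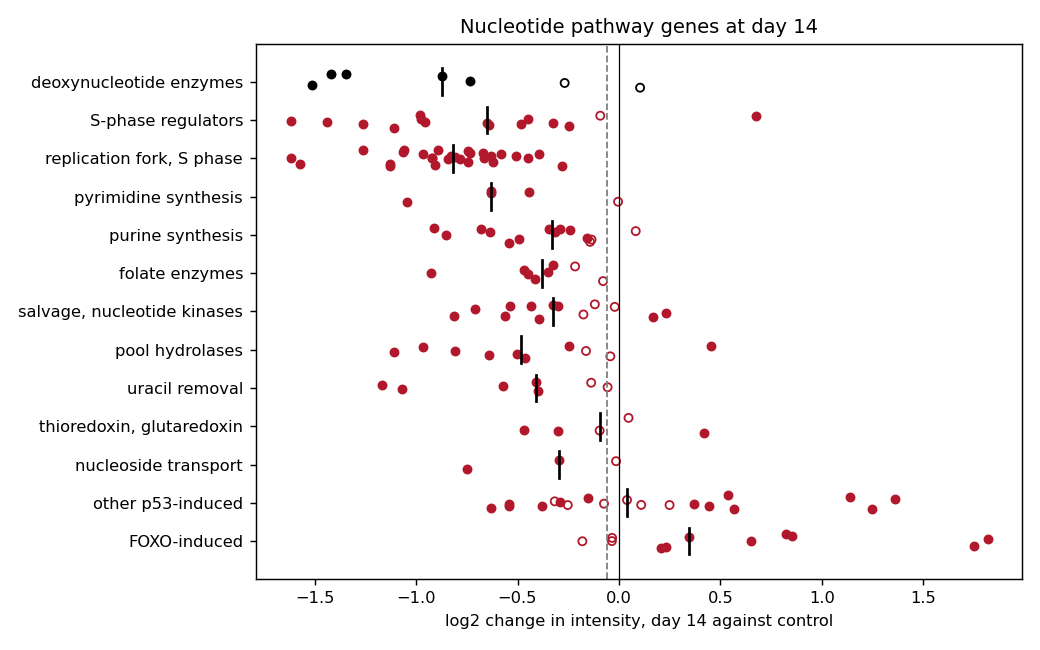
Log2 change in intensity at day 14 against control (x axis) of each tested gene, by pathway list; filled points have a limma adjusted p below 0.05, black ticks are list medians, and the dashed line is the median of all tested genes. The 28 S-phase genes all lie below 0, the 7 deoxynucleotide enzymes have a median of -0.87, and the p53-induced genes lie on both sides of 0.

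At day 7, 9 of these pathway genes were called, where limma called 3.34% of all tested genes. The most in any list were 2 of 10 pool enzymes and 2 of 11 FOXO-induced genes. Ccna2 (1.0), E2f2 (0.67), Cdkn1a (0.69), Irs2 (0.66), Mthfd2 (0.48) and Nudt1 (0.32) rose, and Smug1 (-0.40), Insr (-0.31) and Samhd1 (-0.30) fell. Each of these 9 calls was lost under 3 to 12 of 21 alternatives, and leaving out day 7 replicate 1 was among them in every case.

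Marker genes were checked against the sort. All 10 LKS+ progenitor markers with a probe set of their own were above the 40th percentile in every array, with summed intensities of 10608 to 11502 at day 14, 10440.0 to 11031 at day 7 and 11420 to 11894 in control. At day 14, 3 of the 10 were called, where limma called 34.1% of all tested genes lower and 18.3% higher. Cd48 was lower, at 700.3 ± 94.4 against 1253 ± 91.1 in control (log2 -0.85), Procr was lower (-0.43, a call lost after scaling to the 75th percentile) and Gata2 was higher (0.43). Kit differed by -0.03 (limma adjusted p = 0.802). Summed intensities of 8 megakaryocyte markers were 1605 to 1885 at day 14, 761 to 818 at day 7 and 610 to 696 in control, with Gp6 below the 40th percentile throughout. Those of 11 myeloid markers were 9597 to 12401 at day 14, 7992 to 10040 at day 7 and 6813 to 8681 in control, and those of 8 B-lineage markers were 406 to 494 at day 14, 393 to 474 at day 7 and 274 to 278 in control, with Ms4a1 below the 40th percentile throughout. Sums of 5 mast cell and basophil markers were 813 to 972 at day 14, 595 to 705 at day 7 and 443 to 569.7 in control. Those of 9 T and NK markers were 1013 to 1075 at day 14, 1124 to 1180 at day 7 and 912 to 1078 in control, with Cd3g and Cd3d below the 40th percentile throughout. That sum is carried by Nkg7, which was lower at day 14 (527 ± 51.6) than in control (742 ± 63.2), while 5 of the 7 tested T and NK markers were called higher, among them Cd28 at 159.6 ± 21.8 at day 14 against 30.7 ± 5.20 in control. Of these 5, Cd8a lost its call under 5 of 20 alternatives, and Cd3e turned sign under 1 of 21. The 7 erythroid markers summed to 811 to 889 at day 14, 917 to 926 at day 7 and 745 to 1525 in control, with Hba-a1 and Alas2 below it throughout. At day 14 limma also called 5 of 7 tested megakaryocyte markers higher, 5 of 11 myeloid markers higher and 2 lower, and 5 of 7 B-lineage markers higher and 1 lower. Over all tested genes it called 18.3% higher and 34.1% lower. Of the B-lineage genes called higher, Ebf1 was below the 40th percentile in every control and day 7 array. It was tested only through the day 14 arrays, where it is high, so its call could only be a rise. Cd79a was below the 40th percentile in every control array, and its call was lost with an offset of 32. Of 3 mast cell and basophil markers, 1 was called higher. Of 5 erythroid markers only Tfrc was called, as higher, and the call was lost with the mean of its probe sets. The erythroid median log2 was -0.84, with 3 of the 5 genes below 0 and 0 called lower. Control replicate 1 stood apart from the other controls for Car1 (672, against 87.0 and 73.9), Klf1 (155, against 36.1 and 44.8) and Ermap (90.4, against 25.9 and 27.1). Epor was also highest in that control array, and Tfrc was lowest in it. The part of these markers in the changes of the 7 genes was not tested.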

How the data were processed

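RNA was amplified over 2 cycles, labelled and hybridised, per the series' design text, which also says that signals were normalized with Affymetrix Microarray Analysis Software 5.0. Other steps are not given in the sources used here. The deposited table holds 1 linear normalized intensity per probe set and array, and 51.64% of probe sets hold an exactly equal value in at least 2 arrays, so scaling was varied. From these values, probe sets with 1 gene symbol in the platform annotation (34945 of 45037) named a gene, and the brightest by mean log2 intensity stood for it. Values below the 20th percentile (5.81) were raised to it, and log2 was taken. Limma 3.58.1 in R 4.3.3 fitted 1 model over 9 arrays without covariates, and adjusted p-values cover all 12652 genes tested. Single differences of changes had two-sided exact permutation tests over arrays.

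Samples were grouped by their labels. The deoxynucleotide genes, the 12 pathway lists and the 7 marker lists were chosen with earlier results of these data known, so no count over a list is independent evidence. Named besides the 7 genes were up to 3 called genes per direction of each list with the largest change, 11 genes set in advance, of which 1 is not reported here, and the 5 genes nearest to Rrm2 and to Rrm2b. Alternatives were other scalings, floors, filters, probe set rules, variance models and a fold minimum, the replicate number as a block, and each array left out. All steps were tested on simulated data. The number of arrays limits the precision.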

Additional observations from a re-analysis of the deposited data

Results flagged for a closer look

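For 5 genes the change from control differed between the days, as tested by day 14 against day 7 with limma. The log2 change at day 14 minus that at day 7 was -1.13 for Rrm1, -1.83 for Rrm2, -1.33 for Tyms, -2.21 for Tk1 and -1.15 for Dut, with adjusted p-values between 2.06e-05 and 6.29e-05. For Rrm1, Rrm2, Tk1 and Dut the day 7 value lay above control and the day 14 value below it, while for Tyms the day 7 value was at the control level (-0.01). None of these genes was called at day 7 against control, with limma adjusted p of 0.0694 for Tk1 to 0.218 for Dut among those above control. The Rrm2 arrays of day 7 and control overlapped. Of all tested genes, 51.0% were called between the days.

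A signal outside the 20 probe sets of the 7 genes came from the probe set annotated to Tyms-ps and Tyms together, which averaged 209 at day 14, 632 at day 7 and 414 in control. It was higher at day 7 than in control in 3 of 3 arrays (log2 0.63, limma over all probe sets, adjusted p = 0.064), where the Tyms probe set that stands for the gene differed by -0.01.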

How the results depend on the processing

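The count of 5 of the 7 genes called at day 14 against control stayed between 3 and 6 over the alternatives, 3 with a minimum of 2-fold. With an array left out it stayed between 5 and 6. Against day 7 it stayed between 4 and 6, and between 5 and 6 with an array left out. Over all tested genes, 6626 were called at day 14 against control and 6455 against day 7. With the minimum of 2-fold these were 411 and 446, and with an array left out 5680 to 6422 and 5476 to 6574. Tyms has no value under the filter at the 60th percentile. At day 7 the count of 0 became 1 with an offset of 32 and 4 with array weights (Rrm1 0.43, Rrm2 0.49, Tk1 0.74, Dut 0.28), and ran from 0 to 3 with an array left out. Changes near 0 turned sign: Rrm2b at day 7 (0.012 without control replicate 2, 0.024 without day 7 replicate 1, range -0.070 to 0.024 with an array left out), Tyms at day 7 (0.017 after quantile normalization, 0.18 with array weights, 0.099 without control replicate 2, 0.14 without day 7 replicate 3, range -0.11 to 0.14), Dck at day 7 (-0.048 with array weights, -0.085 without control replicate 3, -0.060 without day 7 replicate 1, highest 0.10) and Rrm2b at day 14 (-0.031 with the mean of its probe sets); the cause was not tested. Dck against day 7 passed with the mean of its probe sets (-0.42, limma adjusted p = 0.0141). The change of Rrm2b minus that of Rrm2 ran from 1.36 to 1.58 at day 14 against control (1.34 to 1.69 with an array left out), from 1.84 to 2.03 at day 14 against day 7 (1.80 to 2.13) and from -0.56 to -0.42 at day 7 against control (-0.62 to -0.33). Of all genes, 423 were called at day 7, 59 with dim genes kept, 280 with the replicate block, 703 with an offset of 32 and 2181 with array weights, and 79 to 555 with an array left out.

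The labels do not say whether arrays with the same replicate number were paired. Same-numbered arrays of day 14 and control had deviations that correlated at 0.0325, 0.0819 and -0.0927, those of day 7 and control at -0.0485, 0.12 and 0.00226, and those of day 14 and day 7 at -0.193, -0.129 and 0.0225. With 3 arrays a group, such low correlations cannot exclude a pairing. With the replicate block 5, 5 and 0 of the 7 genes were called at day 14 against control, day 14 against day 7 and day 7 against control, as without it, and the exact p for Rrm2b minus Rrm2 could not go below 0.25. Signal limits Tyms most, whose day 14 values lie close to the 40th percentile.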
